A study of Mus musculus with 15 samples.

Results

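Sprouty and Spred proteins are membrane-associated inhibitors of the Ras, Raf and ERK kinase cascade, the MAP kinase pathway that carries signals from growth factor receptors and from the T-cell receptor. Their transcripts are known to be induced by the ERK signal that the proteins then dampen, which makes them feedback inhibitors. Errfi1 (also called Mig6) is a feedback inhibitor of another kind, which binds the kinase domain of EGF receptor family members. In the thymus, ERK signalling takes part in both the positive and the negative selection of thymocytes. The genes described here were Spry1, Spry2, Spry4, Spred1, Spred2 and Errfi1, the 6 genes of this group chosen by symbol out of 19938 measured genes. Each was read from the probe set annotated to that symbol alone. Spred2 had 2 such probe sets, of which the brighter over all arrays was used, and the other 5 genes had 1 each.

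Expression was measured in whole thymus of 5-week-old female mice, 1 Affymetrix Mouse Gene 1.0 ST array per mouse. The mice had received 0.5 µg of peptide intravenously, and thymus was taken 2 h later. The peptide was either gp33, a viral peptide presented by the class I molecule Db, or a control peptide that binds Db as well. NOD.LCMV mice gave 3 arrays with the control peptide and 3 with gp33. NOD.Ln82-LCMV mice gave 4 arrays with the control peptide and 5 with gp33. The study is known to have used mice of both strains with a transgenic T-cell receptor for gp33, which the control mice then carry too, and the labels do not describe the Ln82 segment. No processing batch is named in the labels. Any batch split along the strains cannot be told apart from them. Thymocyte genes were bright in all groups: Cd8a had group means of 12.14 to 12.64, Cd4 of 11.77 to 12.34 and Rag1 of 11.51 to 11.75 log2. Array medians lay between 7.59 and 7.67 log2. Precision is limited by the 3 to 5 arrays of a group. Whole tissue was measured, so fewer cells of a type and less RNA per cell cannot be told apart.

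Values are log2 expression as deposited, and group differences were tested within a gene. Levels of different genes were not tested against each other. Each difference is given in log2 with its standard error from limma, a linear model fitted to all genes. Calls were made where the Benjamini-Hochberg p, adjusted over the whole gene table, was under 0.05. A positive strain difference means a higher level in NOD.LCMV than in NOD.Ln82-LCMV.

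In NOD.LCMV, 5 of the 6 genes rose after gp33 and Spred2 was not called. Over all genes, 7.29% were called higher and 12.5% lower in this comparison. The median difference of the 6 genes was 0.47 log2, against −0.03 over all genes. In all 5 that rose, each gp33 mouse lay above each control mouse, a separation that 10.9% of all genes showed in this direction. Spry1 and Errfi1 rose over 2-fold, and Spry2, Spry4 and Spred1 less than 2-fold. With 3 mice against 3, an exact two-sided permutation test cannot give a p under 0.10.

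Spry1, a Sprouty protein that dampens Ras and ERK activation downstream of receptors, had the largest response. In NOD.LCMV its values with the control peptide were 8.12, 8.14 and 8.14, and with gp33 they were 10.77, 10.89 and 10.46. The gp33 mice stood far above the control mice of the same strain. The rise was 2.57 ± 0.09 log2, or 5.95-fold (95% interval 5.21 to 6.79; limma adjusted p = 7e-11). It ranked 21 of 19938 genes from the highest difference, among 195 genes that rose at least 2-fold. The exact permutation p was 0.10, the smallest this design allows. In NOD.Ln82-LCMV the control mice stood at 8.08, 8.15, 8.30 and 8.29 and the gp33 mice at 8.46, 8.40, 8.27, 8.35 and 8.42. The groups of this strain overlapped by a single gp33 value, 8.27, which lay below 2 of the control values.

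Errfi1 was the second gene with a response above 2-fold. In NOD.LCMV it stood at 10.25, 10.35 and 10.18 with the control peptide and at 11.65, 11.96 and 11.94 with gp33. The groups did not overlap. The rise was 1.59 ± 0.15 log2, or 3.01-fold with an interval of 2.40 to 3.77 (limma adjusted p = 2.35e-06), rank 81 of 19938. In NOD.Ln82-LCMV the values were 10.05, 10.53, 9.90 and 10.15 with the control peptide and 10.14, 10.16, 10.40, 10.30 and 9.80 with gp33. These groups overlapped over nearly their whole range, and both had a mean of 10.16. The SD of Errfi1 within the NOD.Ln82-LCMV groups, 0.27 and 0.23, was above that of Spry1 (0.11 and 0.07).

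**Figure D1:**
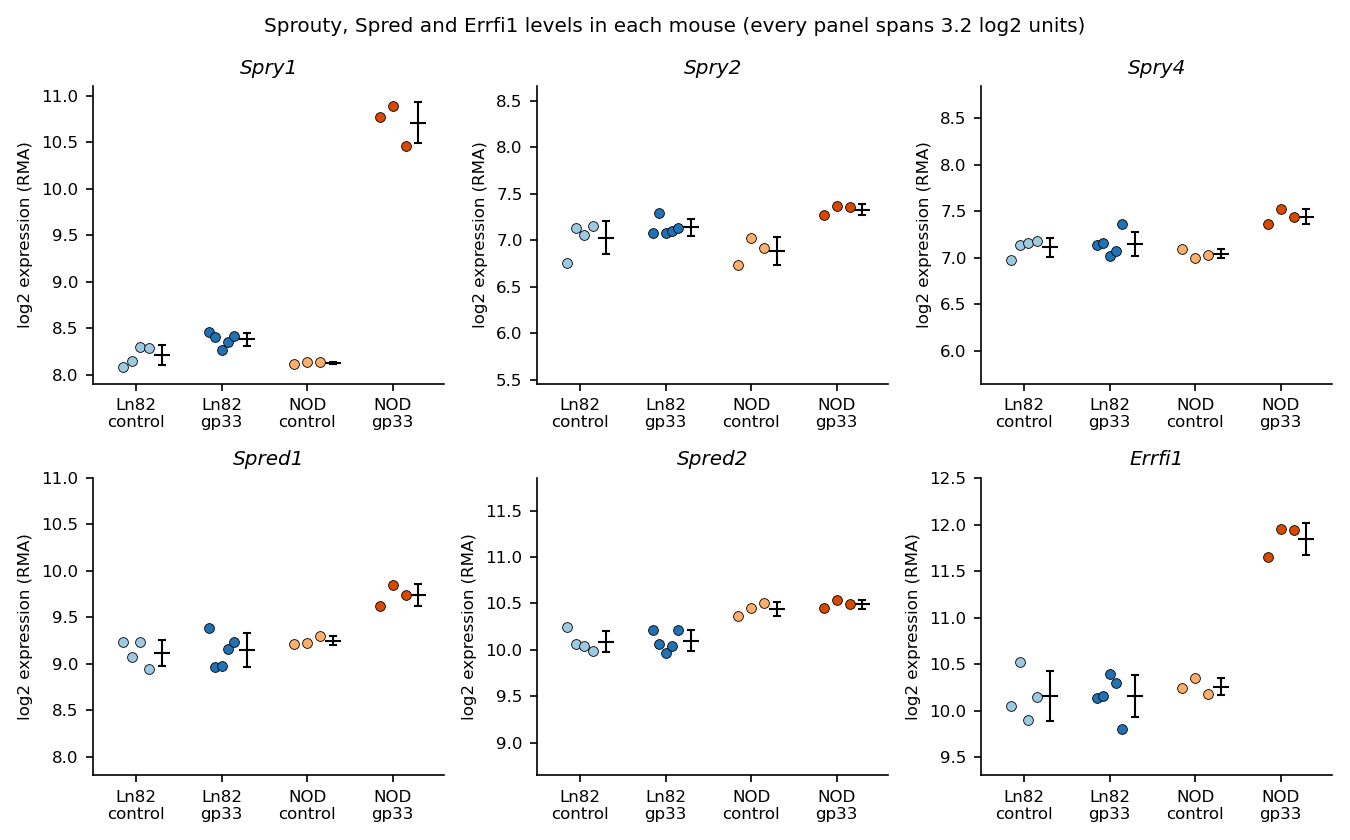
Log2 expression (RMA) of each gene in each mouse, by strain (Ln82 for NOD.Ln82-LCMV, NOD for NOD.LCMV) and peptide. Points are mice in order of replicate number, and the bar beside them is the mean ± SD. The 3 NOD.LCMV gp33 mice stand apart for Spry1 (10.46 to 10.89) and Errfi1 (11.65 to 11.96). Spred2 follows the strain and not the peptide on the brighter of its 2 probe sets, which is drawn here, while the strains overlap on the other.

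Promoter windows are printed for these 2 genes because they had the largest responses and rose together. Each window runs from 250 bases before to 50 bases after a transcript start in RefSeq (GRCm38.p6), and such windows were given for 5 of the 6 genes. The 2 printed windows lie on the plus strand. They were searched on both strands for the AP-1 site TGANTCA, the cyclic AMP response element TGACGTCA, the Egr site GCGNGGGCG, the ETS site CCGGAAG, the SRF CArG box and the NF-κB site. Capitals mark a match. The windows are the Spry1 start at chr3:37639697-37639996 and the second of 2 Errfi1 starts at chr4:150854820-150855119.
Spry1: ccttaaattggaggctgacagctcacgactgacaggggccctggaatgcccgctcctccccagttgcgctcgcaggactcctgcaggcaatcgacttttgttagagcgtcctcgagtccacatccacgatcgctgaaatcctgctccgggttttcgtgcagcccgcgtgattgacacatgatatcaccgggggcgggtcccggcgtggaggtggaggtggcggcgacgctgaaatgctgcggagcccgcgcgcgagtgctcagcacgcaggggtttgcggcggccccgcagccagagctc
Errfi1: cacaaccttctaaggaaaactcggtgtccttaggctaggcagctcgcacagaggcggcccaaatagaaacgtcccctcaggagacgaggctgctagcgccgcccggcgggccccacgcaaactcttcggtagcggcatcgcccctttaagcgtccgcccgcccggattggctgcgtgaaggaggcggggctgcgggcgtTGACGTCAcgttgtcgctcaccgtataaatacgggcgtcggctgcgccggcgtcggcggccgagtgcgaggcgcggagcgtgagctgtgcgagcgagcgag
The Errfi1 window held 1 match, a cyclic AMP response element whose first base lies at −51 relative to the start site, and such a match was present in 1.79% of 32851 windows of the same length. No match to the other motifs was found in either window. Those motifs were present in 7.81% (AP-1), 5.55% (Egr), 8.86% (ETS), 1.63% (SRF CArG box) and 4.51% (NF-κB) of all windows. The windows of Spry2, Spred1 and Spred2 and the first Errfi1 window held no match to any of the 6. A match is only a description of the letters, and its absence says nothing about sites elsewhere.

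The other Sprouty genes rose less in NOD.LCMV. Spry2, which also sequesters the ubiquitin ligase Cbl and so affects receptor turnover, lay between 6.73 and 7.02 in control mice and between 7.27 and 7.37 in gp33 mice. The rise was 1.36-fold (0.44 ± 0.10 log2) with an interval of 1.18 to 1.57 (limma adjusted p = 0.00339). Spry4, an inhibitor of Ras activation by growth factors, ranged from 7.0 to 7.09 and from 7.36 to 7.52. The rise was 1.32-fold (0.40 ± 0.08 log2) with an interval of 1.18 to 1.48 (limma adjusted p = 0.00172). Neither gene's groups overlapped. Both genes had low values, near the cut of an alternative filter that left out genes with a mean over all arrays under 6.92 log2. The Spry2 mean in NOD.LCMV controls, 6.89, lay below that value, and the Spry4 group means, 7.04 to 7.44, lay above it.

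Of the Spred genes, Spred1 rose and Spred2 was not called. Spred proteins recruit neurofibromin, a Ras GTPase-activating protein, to the membrane. Spred1 stood at 9.21, 9.23 and 9.30 with the control peptide and at 9.62, 9.85 and 9.74 with gp33 in NOD.LCMV. All gp33 mice lay above all control mice, and the rise was 0.49 ± 0.10 log2 (1.40-fold, interval 1.2 to 1.64, limma adjusted p = 0.00314). Spred2 stood at 10.36, 10.45 and 10.51 with the control peptide and at 10.45, 10.54 and 10.49 with gp33. Its groups overlapped, at a difference of 0.05 ± 0.08 log2 (limma adjusted p = 0.756). The interval of that difference runs from 0.928-fold to 1.16-fold. The 95% intervals of Spry2, Spry4 and Spred1 overlapped. Whether the members' responses differ from each other was not tested.

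**Figure D2:**
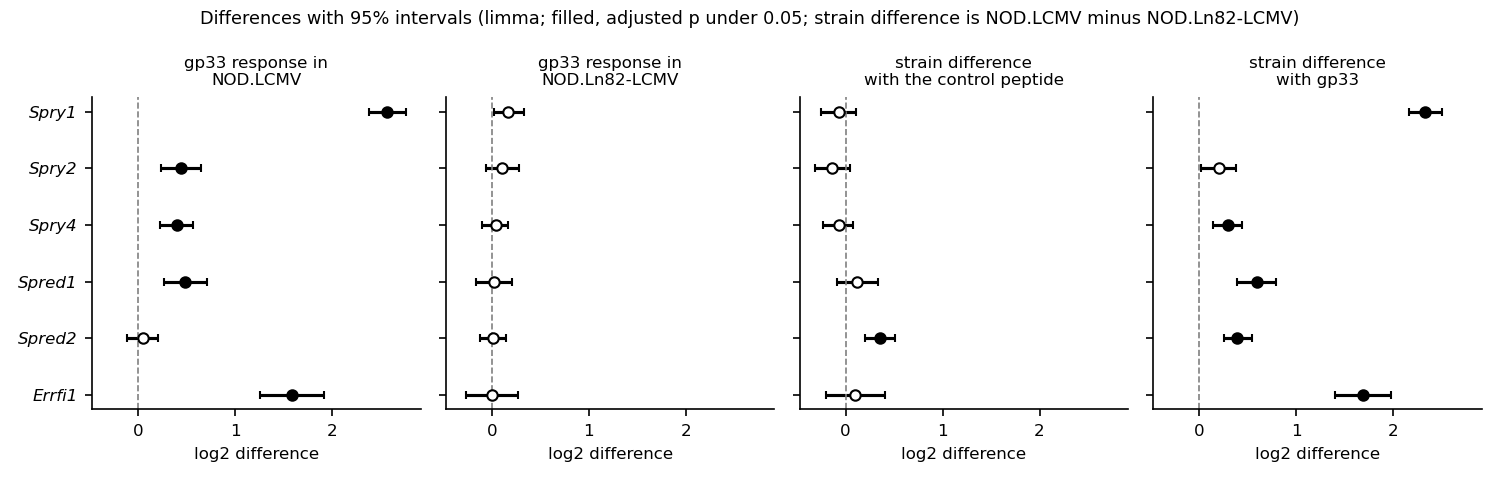
Log2 differences of the 6 genes with 95% intervals from limma, in 4 comparisons. Filled points are called at an adjusted p under 0.05. The gp33 response in NOD.LCMV spans 0.05 (Spred2) to 2.57 (Spry1), and in NOD.Ln82-LCMV no gene exceeds 0.17.

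In NOD.Ln82-LCMV none of the 6 genes was called in limma, where 0.00502% of all genes (1 gene) were called. At an unadjusted p under 0.05, 1 of the 6 genes passed, namely Spry1, as did 1190 of the 19938 genes. Spry1 had a difference of 0.17 ± 0.07 log2 (1.13-fold, interval 1.01 to 1.26, limma adjusted p = 0.809; exact permutation p = 0.0317 over 126 splits, where 0.00794 is the smallest possible). That exact p is 1 of 24 computed for the 6 genes and is not adjusted. Without any single array, the Spry1 difference lay between 0.13 and 0.21 log2. The other differences were 0.11 ± 0.08 for Spry2, 0.04 ± 0.06 for Spry4, 0.02 ± 0.09 for Spred1, 0.01 ± 0.06 for Spred2 and 0.00 ± 0.13 for Errfi1. The last 4 changed sign under at least 1 alternative or without an array and have no direction. The intervals bound what a response could have been: at most 1.21-fold for Errfi1, 1.21-fold for Spry2, 1.13-fold for Spry4, 1.15-fold for Spred1 and 1.11-fold for Spred2. For none of the 6 did the groups of this strain separate, as against 1.51% of all genes in either direction.

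The difference between the gp33 responses, NOD.LCMV minus NOD.Ln82-LCMV, was called for 4 of the 6 genes, all in the upward direction. Over all genes, 4.46% were called upward and 4.26% downward. The Spry1 response was larger in NOD.LCMV by 2.40 ± 0.12 log2, a ratio of 5.27 with an interval of 4.44 to 6.26 (limma adjusted p = 8.35e-09). For Errfi1 it was larger by 1.59 ± 0.20 log2, a ratio of 3.01 with an interval of 2.24 to 4.03 (limma adjusted p = 8.33e-05). These calls held without any single array, with Spry1 between 2.31 and 2.52 and Errfi1 between 1.46 and 1.69 log2. The calls of Spred1 and Spry4 were marginal. Spred1 differed by 0.47 ± 0.13 log2 (limma adjusted p = 0.0426), and the call remained when the array left out was replicate 4 of the NOD.Ln82-LCMV controls, replicate 1 or 5 of the NOD.Ln82-LCMV gp33 mice or replicate 1 of the NOD.LCMV gp33 mice. Leaving out any of the other 11 arrays gave an adjusted p of 0.0537 to 0.122 at 0.41 to 0.49 log2. Spry4 differed by 0.36 ± 0.10 log2 (limma adjusted p = 0.0351), and the call remained when it was replicate 1 of the NOD.Ln82-LCMV controls, replicate 5 of the NOD.Ln82-LCMV gp33 mice or replicate 1 of the NOD.LCMV gp33 mice. Leaving out any of the other 12 arrays gave 0.0518 to 0.104 at 0.32 to 0.39 log2. Spry2 differed by 0.33 ± 0.12 log2 and was not called (limma adjusted p = 0.120), although it was without NOD.Ln82-LCMV control replicate 1 (0.42 log2, adjusted p = 0.0122), whose Spry2 value of 6.76 was the lowest of its group. Spred2 differed by 0.04 ± 0.10 log2 (limma adjusted p = 0.911).

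With the control peptide, the strains differed in 1 of the 6 genes, Spred2, while 4.77% of all genes were called higher and 5.54% lower in NOD.LCMV. Spred2 values were 10.36, 10.45 and 10.51 in NOD.LCMV and 10.25, 10.06, 10.04 and 9.99 in NOD.Ln82-LCMV. No NOD.LCMV value lay as low as any NOD.Ln82-LCMV value, as for 10.3% of all genes in this direction. The difference was 0.35 ± 0.07 log2 (1.28-fold, interval 1.15 to 1.42, limma adjusted p = 0.00494; exact permutation p = 0.0571 over 35 splits, smallest possible 0.0286). The other 5 genes had adjusted p-values of 0.433 (Spry2) to 0.769 (Errfi1), with differences from −0.14 log2 (Spry2) to 0.12 log2 (Spred1), and their groups overlapped. With the control peptide Spry1 stood at 8.13 ± 0.01 (SD, n = 3) against 8.21 ± 0.11 (SD, n = 4), and the interval of this difference is 0.841-fold to 1.08-fold.

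With gp33, 5 of the 6 genes were higher in NOD.LCMV, against 10.2% of all genes. Spry1 was 5.02-fold higher (2.33 ± 0.08 log2) with an interval of 4.46 to 5.65 (limma adjusted p = 4.26e-11). Errfi1 was 3.23-fold higher (1.69 ± 0.14 log2) with an interval of 2.64 to 3.95 (limma adjusted p = 3.08e-07). Spred1 was higher by 0.59 ± 0.09 log2 (1.5-fold, limma adjusted p = 0.000197), Spred2 by 0.39 ± 0.07 (1.31-fold, 0.000396) and Spry4 by 0.29 ± 0.07 (1.22-fold, 0.00513). For Spry1, Errfi1, Spred1 and Spred2 every NOD.LCMV mouse lay above every NOD.Ln82-LCMV mouse, as for 10.6% of all genes, and the exact permutation p was 0.0179 for each, the smallest that 56 splits allow. Spry4 overlapped, since NOD.Ln82-LCMV gp33 replicate 5 (7.36) equalled the lowest NOD.LCMV mouse. Spry2 was not called (0.20 ± 0.09 log2, limma adjusted p = 0.108), but it was with every array centred on its median (0.25 log2, adjusted p = 0.0277), after a second quantile normalization (0.22, 0.0498), in a fit of only the arrays compared (0.20, 0.0310) and without NOD.Ln82-LCMV control replicate 1 (0.20 log2, adjusted p = 0.0332). This comparison shares its gp33 arrays with those of the responses and is no separate evidence.

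The strain difference of Spred2 rested on 1 of its 2 probe sets. On the brighter, 10374455, the group means were 10.44 and 10.49 in NOD.LCMV and 10.09 and 10.10 in NOD.Ln82-LCMV. On the other, 10374464, they were 9.0 and 8.93 against 8.94 and 8.87, and all groups overlapped. The differences there were 0.06 ± 0.10 log2 with the control peptide and 0.05 ± 0.10 with gp33 (limma adjusted p = 0.827 and 0.785 over all probe sets with a single symbol). With the mean of both probe sets, the difference with the control peptide was 0.21 log2 and was no longer called (limma adjusted p = 0.141). With gp33 it went from 0.39 to 0.22 log2 and was still called (limma adjusted p = 0.0467). After gp33 the dimmer probe set differed by −0.07 ± 0.11 log2 in NOD.LCMV and −0.07 ± 0.09 in NOD.Ln82-LCMV. Which part of the Spred2 transcript each probe set covers was not used here.

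**Figure D3:**
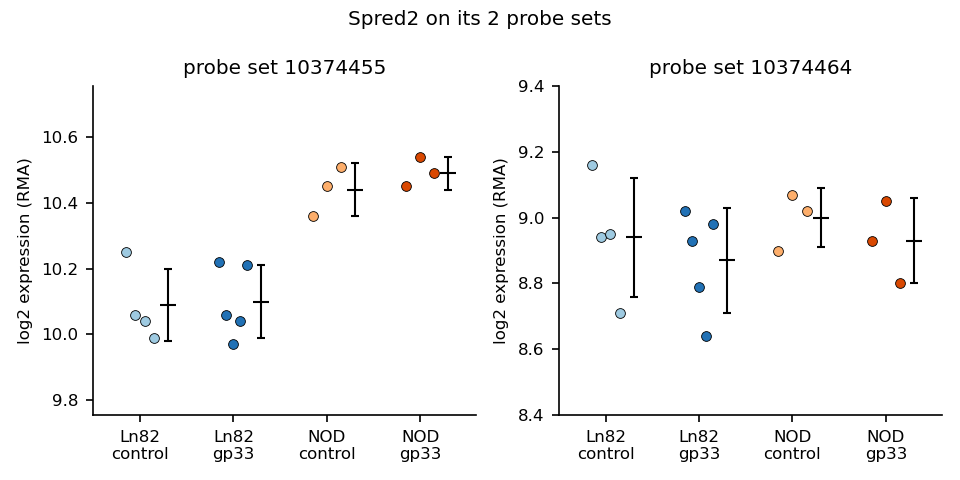
Spred2 log2 expression (RMA) in each mouse on each of its 2 probe sets, with the mean ± SD beside the points. The strains separate on 10374455 (9.97 to 10.25 against 10.36 to 10.54) and overlap on 10374464.

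The remaining members of the family, Spry3 and Spred3, did not pass the test in any of the 5 comparisons. Spry3 was low, with group means of 5.63 to 5.71 log2, under the 6.92 log2 of the alternative filter. At that level the lack of a call cannot show that Spry3 did not respond. Spred3 had group means of 7.32 to 7.40 log2. Spry3 had differences of 0.02 ± 0.04 log2 after gp33 in NOD.LCMV and −0.06 ± 0.04 in NOD.Ln82-LCMV, and Spred3 of −0.03 ± 0.11 and 0.07 ± 0.09.

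Most transcripts known to follow ERK activity rose along with the inhibitors in NOD.LCMV. Of 18 such genes, 14 rose and none was called lower, with a median of 1.06 log2 (13 or 14 rose when any single array was left out). The share of all genes called higher was 7.29%. Among the genes that rose were the transcription factor genes Myc (1.40 ± 0.07 log2), Fosl2 (1.96 ± 0.11) and Egr2 (1.53 ± 0.12) and the ERK phosphatase gene Dusp5 (2.14 ± 0.15), with limma adjusted p-values from 3.3e-09 to 2.71e-07. The other 4 were not called, with differences of −0.25 log2 for Dusp6, −0.06 for Etv4, 0.16 for Ccnd1 and 0.35 for Etv5. Those among them outside the naming rule were named after their values were seen. In NOD.Ln82-LCMV limma called none of the 18, whose median was 0.14 log2 against 0.00 over all genes. The largest differences there were those of Egr2 (0.43 ± 0.10, adjusted p = 0.374) and Dusp5 (0.43 ± 0.12, adjusted p = 0.623). The responses of the strains differed for 11 of the 18, all upward, while 4.46% of all genes were called upward.

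The MAP kinase phosphatases, which dephosphorylate MAP kinases and not in every case ERK, rose in part. Of 10 genes, 6 rose and 1 fell in NOD.LCMV, while 7.29% of all genes were called higher and 12.5% lower. Dusp4, Dusp5 and Dusp6 were also counted among the ERK-following transcripts above, so the lists overlap. The median of the 10 was 0.47 log2, the same as that of the 6 inhibitors. Besides Dusp5, the genes that rose included Dusp2 (1.27 ± 0.10 log2), Dusp16 (0.67 ± 0.06) and Dusp1 (0.82 ± 0.09). The responses of the strains differed upward for 4 of the 10 and downward for 1, beside 4.46% and 4.26% of all genes.

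Most genes of the cascade that carries the signal were not called. Of 17 genes from the adaptor Grb2 to the ERK kinases, 12 had a probe set with that symbol alone. In NOD.LCMV, 1 of the 12 rose, the scaffold gene Ksr1 (0.60 ± 0.07 log2, limma adjusted p = 9.35e-06), and 2 fell, the Raf kinase gene Araf (−0.23 ± 0.04) and the MEK gene Map2k1 (−0.19 ± 0.05). These counts are near the shares over all genes, 7.29% called higher and 12.5% lower. The Map2k1 call was lost with median centring (−0.16 log2, adjusted p = 0.0527) and without NOD.LCMV gp33 replicate 2 (−0.15 log2, adjusted p = 0.0562). The list's median was −0.09 log2.

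Among 13 proteins that bind or modify Sprouty and Spred proteins, 4 rose and 2 fell in NOD.LCMV, with a median of 0.01 log2, beside the 7.29% of all genes called higher and 12.5% called lower. The risers included Cblb, a ubiquitin ligase that restrains T-cell activation (0.48 ± 0.05 log2, limma adjusted p = 4.54e-06), the receptor kinase gene Kit (0.79 ± 0.13, 0.000421) and the ubiquitin ligase gene Siah2 (0.31 ± 0.08, 0.00969). Between 0 and 2 genes of the list were called lower when an array was left out, and 0 to 4 under other settings; that of the kinase gene Mknk1 (−0.18 ± 0.05) was lost with median centring (adjusted p = 0.0667), in a fit of only the arrays compared (0.0564) and when replicate 3 of the NOD.LCMV controls or replicate 2 of the gp33 mice was left out (0.0579 to 0.0585). The neurofibromin gene Nf1, the partner of the Spred proteins, had no called response to gp33 in NOD.LCMV (0.05 ± 0.06 log2, limma adjusted p = 0.690), and its responses in the strains did not differ by a called amount (0.13 ± 0.07, 0.356). It was higher in NOD.LCMV than in NOD.Ln82-LCMV by 0.29 ± 0.05 log2 with gp33 (limma adjusted p = 0.000429) and by 0.16 ± 0.05, not called, with the control peptide (0.0666).

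Other inhibitors of receptor signalling were called lower more often than higher. Of 19 genes, which hold Cbl and Cblb again, 2 rose and 8 fell in NOD.LCMV, with a median of −0.14 log2. Falls included Ubash3a, a suppressor of T-cell receptor signals (−0.43 ± 0.06 log2, limma adjusted p = 9.67e-05), the Ras GTPase-activating protein gene Rasal3 (−0.48 ± 0.07, 0.000162) and the adaptor gene Dok2 (−0.45 ± 0.08, 0.000806). Over all genes 7.29% were called higher and 12.5% lower in this comparison.

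The receptor systems that these inhibitors are best known for were mostly not called. In NOD.LCMV the counts called in them were near the shares over all genes, 7.29% higher and 12.5% lower. Of 11 EGF receptor family genes and ligands, the ligand gene Hbegf rose in NOD.LCMV (0.90 ± 0.09 log2, limma adjusted p = 3.09e-06), and the receptor genes Erbb3 (−0.22 ± 0.06) and Erbb4 (−0.21 ± 0.07) fell. Erbb3 lost its call when replicate 1 or 2 of either NOD.LCMV group was left out, and Erbb4 when any NOD.LCMV control mouse or replicate 1 or 3 of the gp33 mice was (adjusted p of 0.0578 to 0.119, at −0.23 to −0.18 log2). Of 12 genes of the FGF and VEGF systems, only Fgf7 was called (−0.19 ± 0.06 log2, limma adjusted p = 0.0426), a call lost without any of 9 of the 15 arrays and with median centring (−0.16 log2, adjusted p = 0.148).

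**Figure D4:**
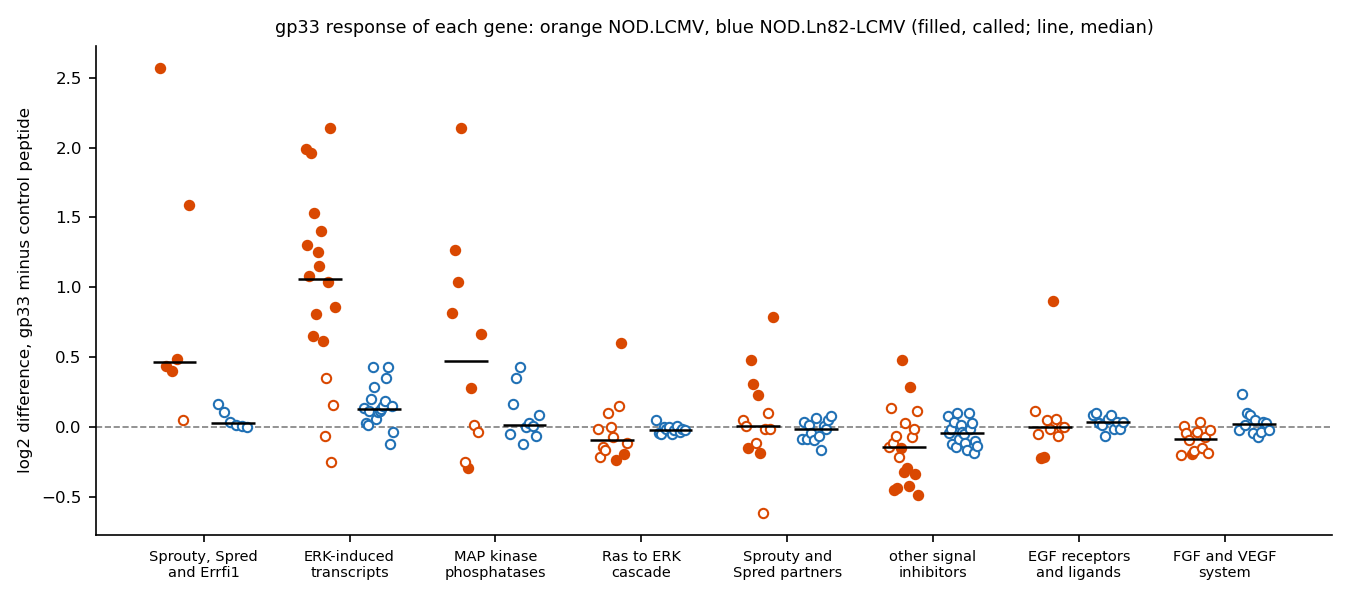
Log2 difference between gp33 and control peptide for every measured gene of each list, in NOD.LCMV (orange) and NOD.Ln82-LCMV (blue). Filled points are called by limma and black lines are medians. In NOD.LCMV the ERK-induced transcripts have a median of 1.06, the 6 inhibitors and the phosphatases 0.47, and the Ras to ERK cascade −0.09, and no gene plotted is called in NOD.Ln82-LCMV.

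Errfi1 is often counted among glucocorticoid-induced genes, so 11 others of that class were read beside it. In NOD.LCMV 6 of the 11 rose, against 7.29% of all genes, with a median of 0.23 log2. Among them were Per1 (1.01 ± 0.10 log2), Mt2 (1.48 ± 0.16) and Dusp1, which was also counted among the MAP kinase phosphatases. The other 5 were not called, with differences of 0.00 log2 for Tsc22d3, 0.01 for Fkbp5, −0.04 for Zbtb16, 0.22 for Klf9 and −0.24 for Ddit4, and those among them outside the naming rule were named after their values were seen. In NOD.Ln82-LCMV limma called none of them, and Tsc22d3 (−0.28 ± 0.10) and Ddit4 (−0.41 ± 0.12) had the smallest p-values with adjusted p = 0.741 and 0.623.

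The profiles closest to Spry1 and Errfi1 over the 15 arrays were found by the root mean square difference between the genes' log2 deviations from their own means. The genes nearest to Spry1 were Ifng, the interferon-γ gene (0.12 log2), the cytokine genes Il6 (0.17) and Ccl2 (0.17), and Tnfaip2, a TNF-induced gene (0.19), against a root mean square of 0.99 for Spry1's own deviations. Ifng matched it most closely, with differences after gp33 of 2.47 log2 in NOD.LCMV and 0.17 in NOD.Ln82-LCMV. The nearest genes were chosen by likeness over these same 15 arrays, so their similar responses are no separate evidence. The genes nearest to Errfi1 were the AP-1 gene Jun (0.20), Gdap10 (0.21), the neutrophil gene Retnlg (0.22) and the myeloid receptor gene Cd14 (0.22), against 0.69 for Errfi1 itself. Some of these genes were low outside the NOD.LCMV gp33 group, with group means under the 6.92 log2 of the alternative filter. These means were 4.69 to 4.74 for Il6, 6.63 to 6.80 for Ifng, 5.69 to 5.92 for Retnlg and 6.49 to 6.60 for Cd14. Nfkbid, the gene named in the study's title, had group means of 9.33 (control peptide) and 11.47 (gp33) in NOD.LCMV and 9.18 and 9.61 in NOD.Ln82-LCMV.

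**Figure D5:**
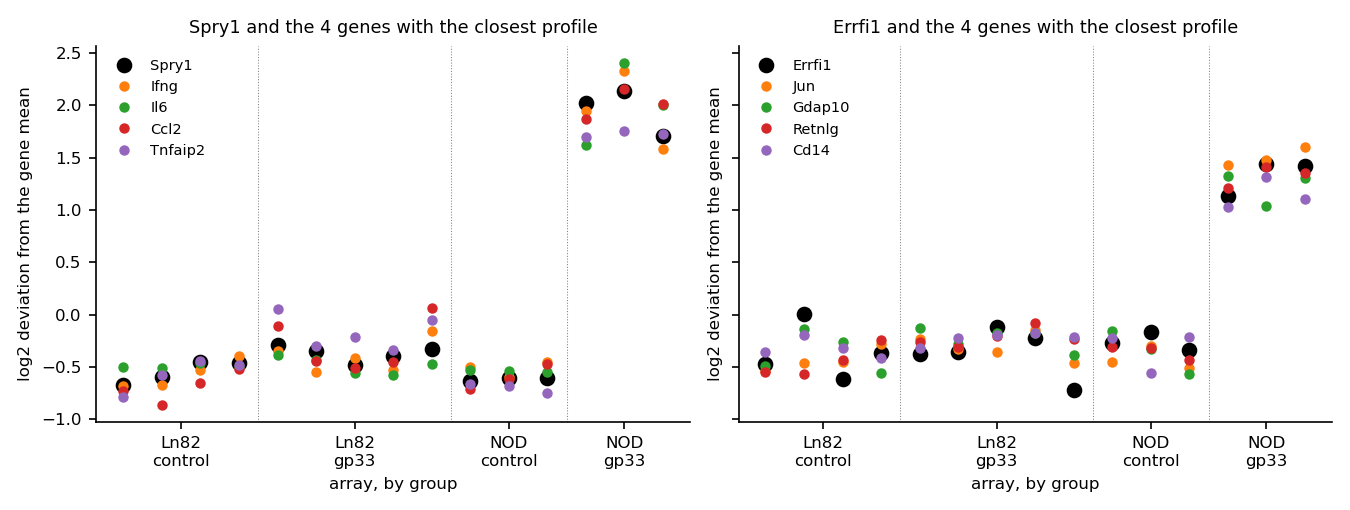
Log2 deviation from the gene's mean on each of the 15 arrays, by strain and peptide, for Spry1 and Errfi1 (large black points) and the 4 genes with the closest profile to each. For all 10 genes drawn, the 3 NOD.LCMV gp33 arrays lie above the other 12 arrays. The close genes were picked by their likeness over these same arrays, so the shared pattern follows from the choice.

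Markers of several cell types moved with the gp33 response in NOD.LCMV, where 7.29% of all genes were called higher and 12.5% lower. All 6 granulocyte markers rose, and their mean level was 6.82 to 6.96 log2 in control mice and 7.68 to 8.06 in gp33 mice, against 6.60 to 6.96 in NOD.Ln82-LCMV. Of 8 double-positive thymocyte markers 5 fell (mean level 10.94 to 11.21 and 10.32 to 11.03), of 5 mature single-positive thymocyte markers 3 fell (9.57 to 9.71 and 8.99 to 9.36), and of 7 markers of dendritic cells and macrophages 3 fell (8.61 to 8.76 and 8.35 to 8.47). Of 6 endothelial markers 2 fell (8.42 to 8.80 and 8.22 to 8.29), as did 2 of 7 thymic epithelial markers. The 1 of 6 fibroblast markers that fell is near the share over all genes. Between the strains with the control peptide, where Spred2 differed, 2 of 6 endothelial markers and 1 of 5 mature thymocyte markers were higher in NOD.LCMV, and 1 of 5 B-cell markers and 1 of 2 red cell markers were lower, beside 4.77% of all genes called higher and 5.54% lower. The part of these cells in the values of the 6 genes was not tested.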

How the data were processed

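Per the submitters' processing notes, the authors made the deposited log2 values with RMA in Affymetrix Expression Console 1.1, and they were used without further normalization. Of 35556 probe sets, 21789 had exactly 1 gene symbol in the platform annotation. The brightest per gene was kept, which left 19938 genes, while 12146 probe sets without annotation and 1621 with several symbols were left out. All 15 arrays entered 1 limma 3.58.1 model (R 4.3.3) with a mean per group (11 residual and 14.9 total degrees of freedom), and the model was tested on simulated data. Single genes were also compared by exact two-sided permutation of the difference of means. The genes described, the lists and the tests were chosen with earlier results of these data known. Named list genes are among the 4 with the smallest p per list and comparison, and the nearest profiles are the 4 closest, with predicted, clone-named, small RNA and antigen receptor segment genes left out. NOD.LCMV replicate numbers follow accession order. Promoter sequences come from RefSeq (GRCm38.p6), and those used here cover 5 genes. Alternatives were 8 other settings and leaving out each of the 15 arrays in turn. NOD.Ln82-LCMV control and gp33 mice share title numbers, but same-numbered mice did not deviate together.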

Additional observations from a re-analysis of the deposited data

Results flagged for a closer look

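In the NOD.Ln82-LCMV gp33 group, the Spry2 value of replicate 2 (7.29) stood apart from the other 4, which lay between 7.08 and 7.13. The gap was 0.76 of the group's range. It was the only value flagged among the 12 groups of 4 or 5 mice examined, and chance flags about 1 in 20 groups. Replicate 1 of the NOD.Ln82-LCMV controls also stood apart without being flagged. Its Spry4 value was 6.97, with the others at 7.14 to 7.18, and its Spry2 value 6.76, with the others at 7.06 to 7.15.

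The response to gp33 differed between the strains by the interaction test for Spry1 (2.40 log2), Errfi1 (1.59 log2), Spred1 (0.47 log2) and Spry4 (0.36 log2), all larger in NOD.LCMV. The Spred1 and Spry4 differences sat close to the threshold.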

How the results depend on the processing

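The 5 genes that rose in NOD.LCMV were called under every alternative and without any array, and the calls of Spry1 and Errfi1 in the difference between responses held as well. With the mean over probe sets, 0 of the 6 genes differed between the strains with the control peptide. Leaving out 1 array gave 2 to 4 genes called in the difference between responses. Uncalled differences near 0 changed sign: Spred2 in NOD.LCMV with the mean over probe sets (−0.01 log2), and in NOD.Ln82-LCMV Spry4 with array weights (−0.03), Spred1 with array weights (−0.08) and Spred2 with the mean over probe sets (−0.03). Without 1 array, Spry4 in that strain lay between −0.02 and 0.07, Spred1 between −0.04 and 0.07, Spred2 between −0.02 and 0.07, and the difference between responses of Spred2 between −0.02 and 0.07. Over all genes, the 1 call in NOD.Ln82-LCMV became 0 with median centring or only the arrays compared, 3 with a variance trend and 4 with array weights, and 0 to 2 without 1 array. Array weights raised the calls in the difference between responses from 1740 to 3175 and in the strain difference with the control peptide from 2057 to 4350, and the latter lay between 1049 and 2721 without 1 array. The low counts came without NOD.LCMV control replicate 3 (1049) or 2 (1310) or NOD.Ln82-LCMV control replicate 3 (1188). The cause was not tested.

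The shared title numbers gave no sign of pairing: the deviations of same-numbered NOD.Ln82-LCMV mice correlated at r = 0.12, 0.01, −0.05 and −0.23 across genes. Those of differently numbered mice ranged from −0.35 to 0.49. So few values cannot show whether the mice were handled in pairs. With the number as a replicate block, 0 genes were called in NOD.Ln82-LCMV, with Spry4 at −0.02 and Spred2 at −0.01 log2. NOD.Ln82-LCMV gp33 replicate 5, which has no partner, adds nothing to that fit. For the difference between responses, a fit on only the arrays compared is the same as the main one and was not repeated.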

Other observations

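Some inhibitors of receptor signalling differed between the strains without gp33. Of the 19 genes of that list, 5 were higher in NOD.LCMV with the control peptide and none lower (2 to 5 were higher when an array was left out), while 4.77% of all genes were called higher. Rasal3, a Ras GTPase-activating protein gene, was higher by 0.36 ± 0.07 log2 (limma adjusted p = 0.00311), the ubiquitin ligase gene Cbl by 0.24 ± 0.05 (0.00486) and the diacylglycerol kinase gene Dgka by 0.23 ± 0.05 (0.011). Dgka lost its call when NOD.LCMV control replicate 3 was left out (0.19 log2, adjusted p = 0.0732) and in a fit of only the arrays compared (0.23 log2, adjusted p = 0.0614). Rasal3 was thus higher with the control peptide in the strain in which it fell after gp33, and both differences share the NOD.LCMV control arrays.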
